A study of Sus scrofa with 12 samples.

Results

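The proteasome subunits of the uterus were taken as every entry of the deposited expression table with a gene symbol beginning PSMA, PSMB, PSMC, PSMD, PSME, PSMF or PSMG and a digit, leaving out PSMB8 and PSMB9. Entries with a placeholder name (LOC and a number) were included where their description names a proteasome subunit, assembly chaperone, activator or inhibitor. This gave 51 of the 20390 entries, 19 by symbol and 32 by description. They stand for 41 different subunits, since 9 subunits have several entries. An entry under a placeholder is called by a subunit where a later gene table gives that name to this entry alone. It is also called so where it is the subunit's only entry, and by its LOC name otherwise. Both SEM1-like entries have that name in the later table, and the one on chromosome 9 is called SEM1. The name does not mark the entry of higher value. PSMB1, PSMB2, PSMB3, PSMB10, PSMC5 and PSMD7 are not analysed here.

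RNA was sequenced from the uteri of 12 newborn gilts (young female pigs), 4 per group and 1 library per animal. The PND2N gilts nursed freely for 48 h, the PND2R gilts were given commercial milk replacer for 48 h, and both were sampled at 50 h of age. The PND0 gilts were sampled within 1 h of birth, before any nursing. The gilts of all 3 groups were crosses of the Landrace, Yorkshire, Duroc and Hampshire breeds, and the labels name no genetic change. The whole uterus was used after connective tissue had been trimmed away, so in these bulk samples fewer cells of a type and less RNA per cell cannot be told apart. PND2N and PND2R differ in feeding at the same age, and each differs from PND0 in age as well as feeding.

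The proteasome is the protease complex that degrades proteins marked with ubiquitin. Its core particle is a barrel in which outer rings of alpha subunits gate the entry and inner rings of beta subunits carry the protease sites. A cap, the regulatory particle, binds the barrel: its base holds the ATPases that unfold the substrate, and its lid removes the ubiquitin chain. Other activators can bind the barrel in place of the cap, and dedicated chaperones assemble the core and the base.

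Levels are the authors' normalized values, which start at 1, and differences are log2 changes ± SE of log2(value + 1). Values were not scaled for gene length, so levels were compared between libraries and not between genes. Of the 51 members, 49 exceeded a value of 1 in at least 4 of the 12 libraries and were tested. The untested entries were LOC100621731, described as a PSMB5-like protein and at 1 in all libraries, and PSMB11, the beta subunit of the thymus, at 1 in all libraries except for 1.93 in PND0 1 and 2.45 in PND0 2. Tests were made with limma over all 16862 genes tested, and p-values were adjusted by the Benjamini-Hochberg method with a threshold of 0.05. "Day 2 mean" is the average of PND2N and PND2R on the log2 scale, set against PND0.

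Library totals of the normalized values were between 26534074 and 29544130. Of the 6 uterine markers looked for, 5 were in the table. HOXA10, HOXA11, ESR1 and EMX2 were at 1035 or above in every library, and PGR was between 14.1 and 408. PND2N 1, PND2R 2 and PND2R 3 stood apart from the other libraries, with summed smooth muscle markers (DES, ACTG2, ACTA2 and CNN1) of 160582 to 202983. The other libraries were between 62319 and 128525 in that sum. DES, ACTA2 and CNN1 were each highest in these 3 libraries. ACTG2 was higher in PND2N 4 (5859.6) than in PND2R 2 (5535) and PND2R 3 (5086). The same 3 libraries were also the lowest in the summed markers of stroma, at 165405 to 207745, with 4 of the 5 markers in the table. The other 9 libraries were between 254641 and 391756 in that sum. COL1A2, COL3A1 and PDGFRA were each lowest in the 3 libraries, while DCN, at 40635 to 48549 in them, lay inside the range of the others (39388 to 55406). In PND2N 1, PND2R 2 and PND2R 3 the endothelial marker VWF was at 24.2, 55.8 and 90.2, while every other library had 591 or above. The endothelial marker TIE1 was also lowest in them, at 514 to 726. KDR, at 1939 to 2309.6 in them, lay inside the range of the other libraries, and PECAM1, at 2247 to 2968, overlapped with the others. PND0 3 and PND0 4 stood apart in the sum of the epithelial markers EPCAM, KRT8, KRT18 and KRT19, at 23602 and 17831. The other 10 libraries were between 41117 and 83745 in that sum. KRT8, KRT18 and KRT19 were each lowest in PND0 3 and PND0 4. EPCAM was lowest in PND0 3 (59.9), but in PND0 4 (191) it was above every day 2 library (79.7 to 171). PND2N 1, PND2R 2 and PND2R 3 also had the most genes at the lowest value of 1, with 22.1%, 21.9% and 21.3%. The other libraries had 17.8% to 20.4%. The parts of cell composition and of library quality in the proteasome values were not tested. The counts and the members called in the day 2 mean are also given without PND2N 1, PND2R 2 and PND2R 3 together. They are given without PND0 3 and PND0 4 together as well. No label sets these libraries apart, so both sets were chosen from values of these same data.

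Many proteasome transcripts were higher after 2 days of life than at birth. In the day 2 mean, 22 of the 49 tested members rose and 0 fell relative to PND0, which is 44.9% of the members. Over all genes tested, 9.57% rose and 8.49% fell in that comparison, 18.1% in either direction. The median log2 change of the members was 0.46, against -0.05 over all genes tested, and 39 of 49 members had a positive change, against 47.2% of all genes tested. All 8 day 2 libraries lay above all 4 PND0 libraries for 13 members and below them for 0, against 6.67% and 6.62% of all genes tested. Without PND2N 1, PND2R 2 and PND2R 3 the count of risers was 7, and without PND0 3 and PND0 4 it was 5. Keeping for each subunit the entry with the highest mean over the 12 libraries, 22 of 40 rose, with a median of 0.53 and 37 positive changes. This leaves out 9 lower entries, of which 2 had a positive change. For PSMD5, PSMD14 and PSMG2 it keeps LOC100626650, LOC100623076 and LOC100623091 and not the entries of those names. The choice favours entries high on day 2, since 8 of the 12 libraries are of day 2, so this count is no separate support. For PSMA5, PSMG2 and PSMD5 the dropped entry had the higher PND0 mean (660.2 against 449.9, 62.6 against 55.5 and 1380.0 against 1086). The changes of these dropped entries were -0.11, -0.20 and -1.56. The risers were PSMA1, PSMA2, PSMA3, PSMA4, PSMA5 and PSMA6 of the alpha ring, PSMB6 and PSMB7 of the beta ring, and PSMC4 and PSMC6 of the base. They also included PSMD6, PSMD8, PSMD11, PSMD13, SEM1 and LOC100623076 of the lid, the activators PSME1, PSME2 and PSME3, and the chaperones PSMG1, PSMG3 and LOC100623091. The count dropped to 9 when PND2N 4 or PND2R 2 was left out, to 11 for PND2R 3, to 13 for PND0 1, to 10 for PND0 3 and to 7 for PND0 4. Over all genes tested, 1614 rose with all libraries. In these fits 902, 946, 1000, 1085, 902 and 600 rose, in the same order of libraries.

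**Figure D1:**
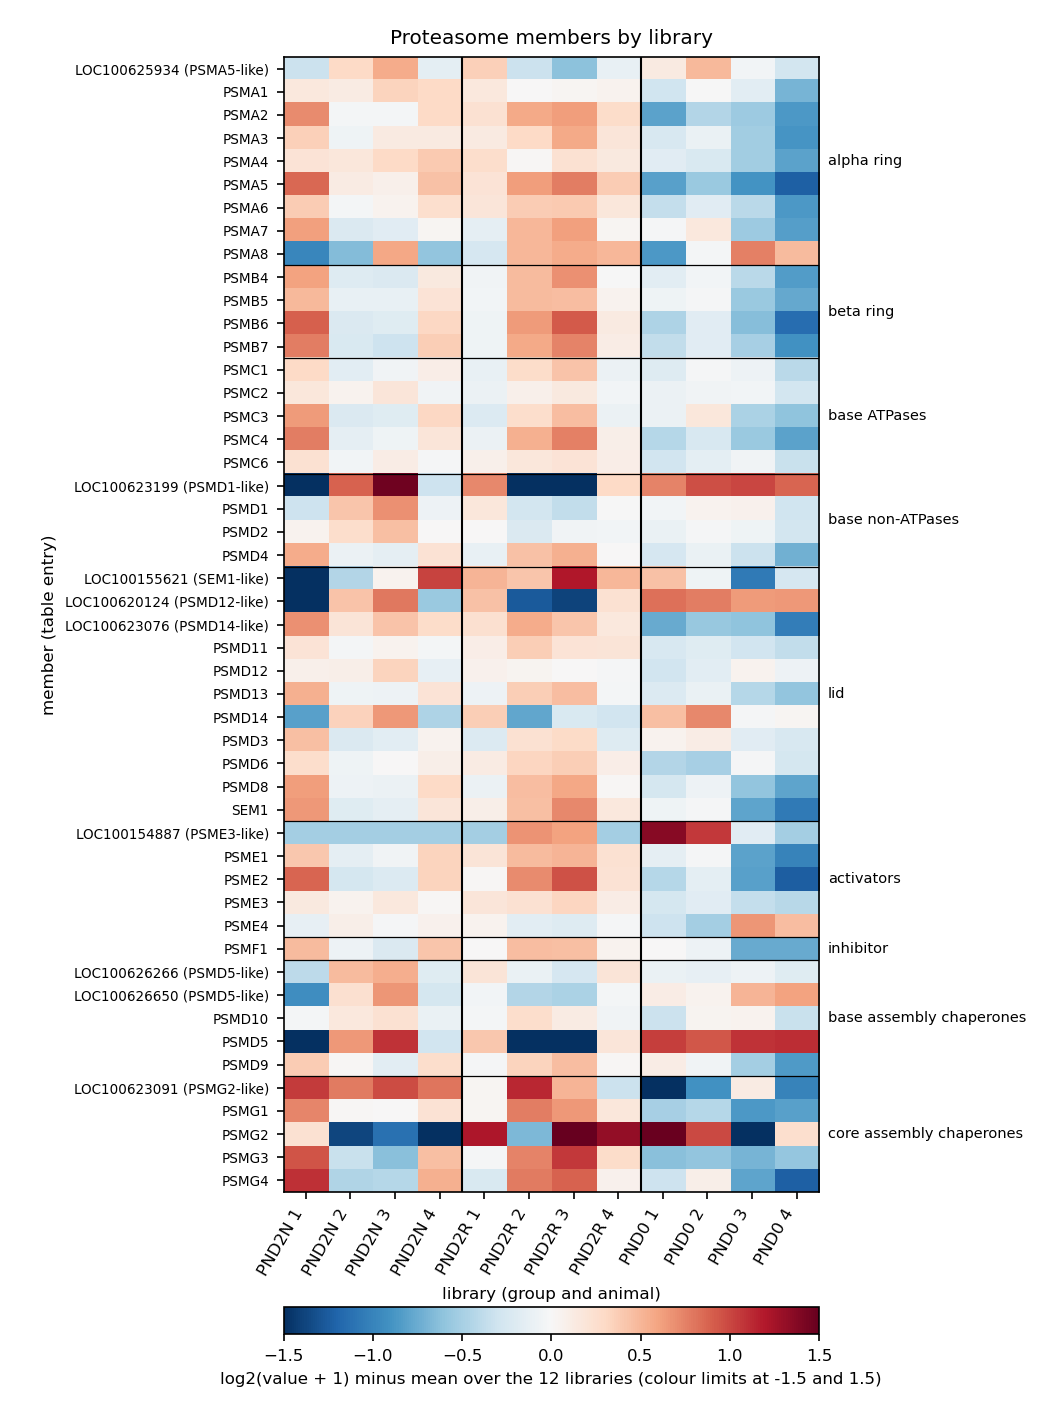
Log2(value + 1) of the 49 tested members in each of the 12 libraries, minus the member's mean over all libraries, with rows grouped by role and colours cut at -1.5 and 1.5. Most rows are blue in the PND0 columns, and PND2N 1, PND2R 2 and PND2R 3 hold the 3 highest values in 26 of the 49 rows.

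Each feeding group set against birth gave fewer calls. In PND2N versus PND0, 5 members rose and 0 fell (1.91% of all genes tested rose, 1.41% fell and 3.32% did either), with a median log2 change of 0.39. The change was positive for 39 members, against 47.5% of all genes tested. In PND2R versus PND0, 15 members rose and 0 fell (7.70% of all genes tested rose and 7.31% fell), with a median of 0.54. Here 40 members had a positive change, against 47.0% of all genes tested. The values of all 4 PND2N libraries lay above those of all 4 PND0 libraries for 15 members and below them for 0, against 8.14% and 7.88% of all genes tested. For PND2R they lay above PND0 for 20 members and below for 4, against 12.7% and 15.6% of all genes tested. Both comparisons use the same PND0 libraries and are therefore not independent. The PND2N count of 5 dropped to 1 when PND2N 1, PND2N 4 or PND0 4 was left out, to 2 when PND2N 2 or PND2R 4 was, and to 3 when PND0 1 or PND0 3 was. It was 0 when only the PND2N and PND0 libraries entered the fit, where 21 members had an unadjusted p under 0.05. Over all genes tested, 1 rose and 6 fell in that fit, and 3728 of 16862 had an unadjusted p under 0.05. The genes that rose in PND2N numbered 322 with all libraries and 45, 9 and 20 without PND2N 1, PND2N 4 and PND0 4. They numbered 70 and 104 without PND2N 2 and PND2R 4, and 101 and 140 without PND0 1 and PND0 3. The PND2R count of 15 dropped to 3 when PND2R 2 or PND2R 3 was left out, to 9 when PND0 3 was and to 6 when PND0 4 was. The genes that rose in PND2R numbered 1299 with all libraries and 270, 301, 742 and 489 in these fits, in the same order.

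Nursed and replacer-fed uteri were compared directly. In PND2N versus PND2R, 0 of the 49 members passed the threshold in limma, every adjusted p was 1, and 1 member had an unadjusted p under 0.05. Over all genes tested, 0.0119% passed in this comparison, all of them lower in PND2N, and 452 of 16862 had an unadjusted p under 0.05. No member separated the 4 nursed from the 4 replacer-fed libraries, while 1.39% of all genes tested lay higher and 1.16% lower in PND2N without overlap. The median log2 difference of the members was -0.08, with 17 of 49 positive, against 54.5% of all genes tested. The member with the unadjusted p under 0.05 was PSMG2, described with the chaperones, with a log2 difference of -2.01 ± 0.81. A difference in feeding was thus not detectable for these transcripts with 4 animals per group. For comparison of sizes, the SE of this difference was 0.11 for PSMC6, PSMD11 and PSME3 and 0.83 for LOC100623199.

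Core, cap and activators were set side by side. In the day 2 mean, where 9.57% of all genes tested rose, 8 of 13 tested core entries rose (median log2 change 0.64), 8 of 20 cap entries (0.33), 3 of 5 activator entries (0.45) and 3 of 10 chaperone entries (0.35). PND2N alone gave 3, 1, 0 and 1 calls in core, cap, activators and chaperones (1.91% of all genes tested rose), with medians of 0.58, 0.30, 0.39 and 0.34. PND2R alone gave 6, 4, 3 and 2 calls in the same classes (7.70% of all genes tested rose), with medians of 0.64, 0.35, 0.51 and 0.66. Within the cap, 2 of 5 base ATPases (median 0.31), 0 of 4 non-ATPase base entries (0.13) and 6 of 11 lid entries (0.40) rose in the day 2 mean. These are counts of entries: the 20 cap entries stand for 16 subunits, and the activators include LOC100154887, at 1 to 6.32. With a filter at 10 the activator median in the day 2 mean was 0.59 over 4 entries. The classes were described by these counts and medians, and the differences between classes were not tested.

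**Figure D2:**
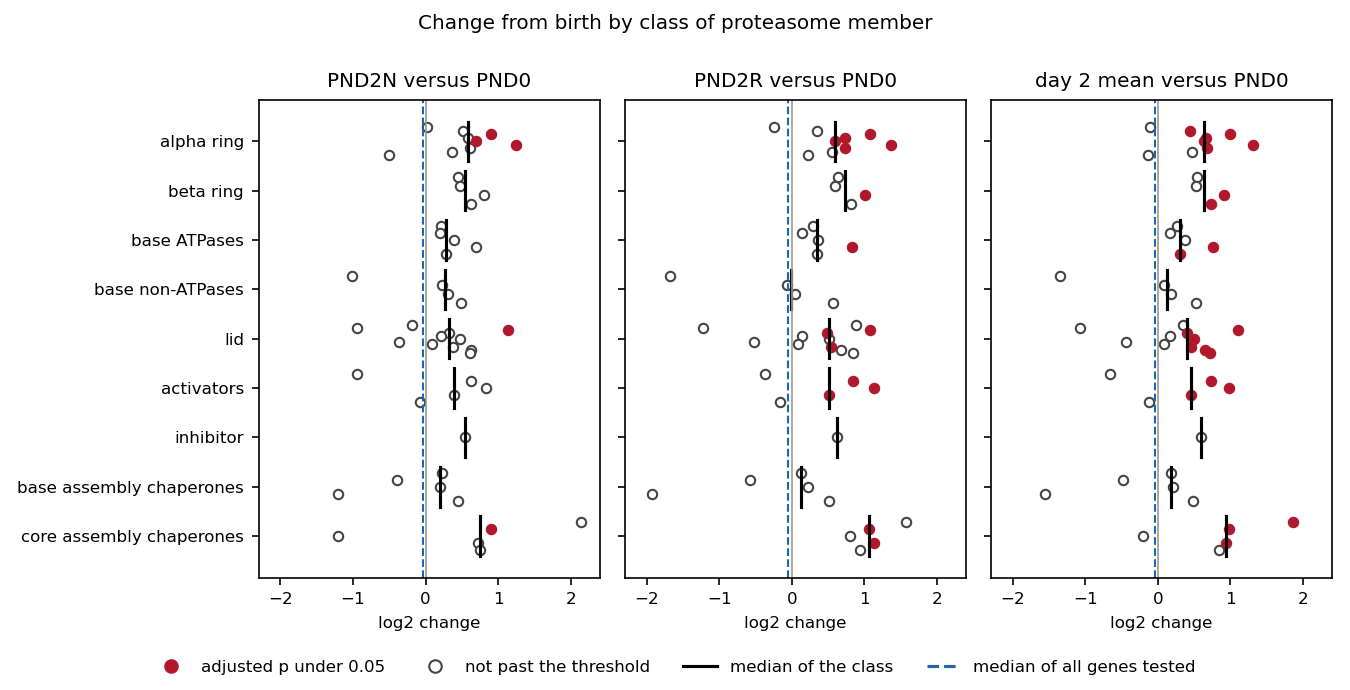
Log2 change of each tested member from birth in PND2N, in PND2R and in the day 2 mean, by role, with filled points for an adjusted p under 0.05, black bars for class medians and a dashed line for the median of all genes tested. All class medians except that of the non-ATPase base entries in PND2R versus PND0 (-0.01) lie to the right of 0.

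PSMA2, PSMA4, PSMA5 and PSMA6 of the alpha ring, which closes the gate of the core, rose in the day 2 mean whichever single library was left out. PSMA5 lies on chromosome 4 at 117104620 to 117113473 (minus strand, Sscrofa10.2). It stood at 1479, 889, 855 and 1108 in PND2N, at 941, 1255, 1389.6 and 1059 in PND2R, and at 464, 551, 435 and 349 in PND0. Every day 2 library was above every PND0 library. The log2 change was 1.25 ± 0.22 in PND2N (adjusted p = 0.0213), 1.37 ± 0.22 in PND2R (adjusted p = 0.00701) and 1.31 ± 0.19 in the day 2 mean (adjusted p = 0.00346). PSMA2, on chromosome 18 at 55836437 to 55841801 (plus strand), had 5640.3, 3379, 3367 and 4253 in PND2N, 4027, 5090.0, 5323 and 4159 in PND2R, and 1972, 2532, 2365 and 1898 in PND0. Here too the day 2 libraries and PND0 did not overlap, and the lowest day 2 values were in PND2N 2 and PND2N 3. PSMA2 rose by 0.90 ± 0.19 in PND2N (adjusted p = 0.0296), by 1.08 ± 0.19 in PND2R (adjusted p = 0.00806) and by 0.99 ± 0.16 in the day 2 mean (adjusted p = 0.00496).

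In PSMA4 the libraries PND2N 1, PND2R 2 and PND2R 3 were not the highest of day 2. It had 4567, 4459, 4898 and 5205 in PND2N, 4764, 4008, 4646 and 4388 in PND2R, and 3536, 3399, 2765 and 2284 in PND0. The day 2 libraries did not overlap with PND0, and PND2N 4 was the highest. It rose by 0.69 ± 0.15 in PND2N (adjusted p = 0.0327), 0.59 ± 0.15 in PND2R (adjusted p = 0.0256) and 0.64 ± 0.13 in the day 2 mean (adjusted p = 0.0101). The entry LOC100155220 overlaps PSMA4 on the same strand, and how the authors shared reads between overlapping genes is not given in the sources used here.

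PSMA6 had 6531, 4927, 5202 and 5962 in PND2N, 5681, 6516, 6599.9 and 5659 in PND2R, and 3925, 4456, 3781 and 2758 in PND0. PSMA3, listed as multicatalytic proteinase subunit K, had 5862, 4353, 5003 and 5033 in PND2N, 5001, 5607, 6792 and 5199 in PND2R, and 3868, 4278, 3169 and 2471 in PND0. In both genes the day 2 and PND0 libraries did not overlap, and PND0 4 was the lowest library. PSMA6 rose by 0.67 ± 0.14 and PSMA3 by 0.66 ± 0.16 in the day 2 mean (adjusted p = 0.011 and 0.0183). Of the remaining alpha entries, PSMA1 rose by 0.44 ± 0.13 in the day 2 mean (adjusted p = 0.0377), also without overlap. PSMA7 had a change of 0.47 ± 0.23 (adjusted p = 0.153). PSMA8, an alpha subunit known from the testis, had values of 8.35 to 30.3 over the 12 libraries and a change of -0.13 ± 0.39 (adjusted p = 0.825).

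The day 2 mean call of PSMA3 ended without PND0 3 or PND0 4 (adjusted p = 0.0509 and 0.0595). That of PSMA1 ended without PND2N 4, PND2R 2, PND2R 3, PND2R 4, PND0 1, PND0 3 or PND0 4 (adjusted p from 0.0555 to 0.112). In PND2N versus PND0, the PSMA5 call ended without PND2N 1, PND2N 4 or PND0 4 (0.051 to 0.0825). The PSMA4 call there ended without PND2N 1, 2 or 4, PND2R 4, PND0 3 or PND0 4 (0.0567 to 0.11), and the PSMA2 call without PND2N 1, PND2N 2, PND2N 4, PND2R 4, PND0 1, PND0 3 or PND0 4 (0.0504 to 0.0999). In PND2R versus PND0, the calls of PSMA2 and PSMA5 held whichever library was left out, and that of PSMA4 ended without PND2R 2, PND2R 3, PND0 3 or PND0 4 (0.0574 to 0.0791).

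**Figure D3:**
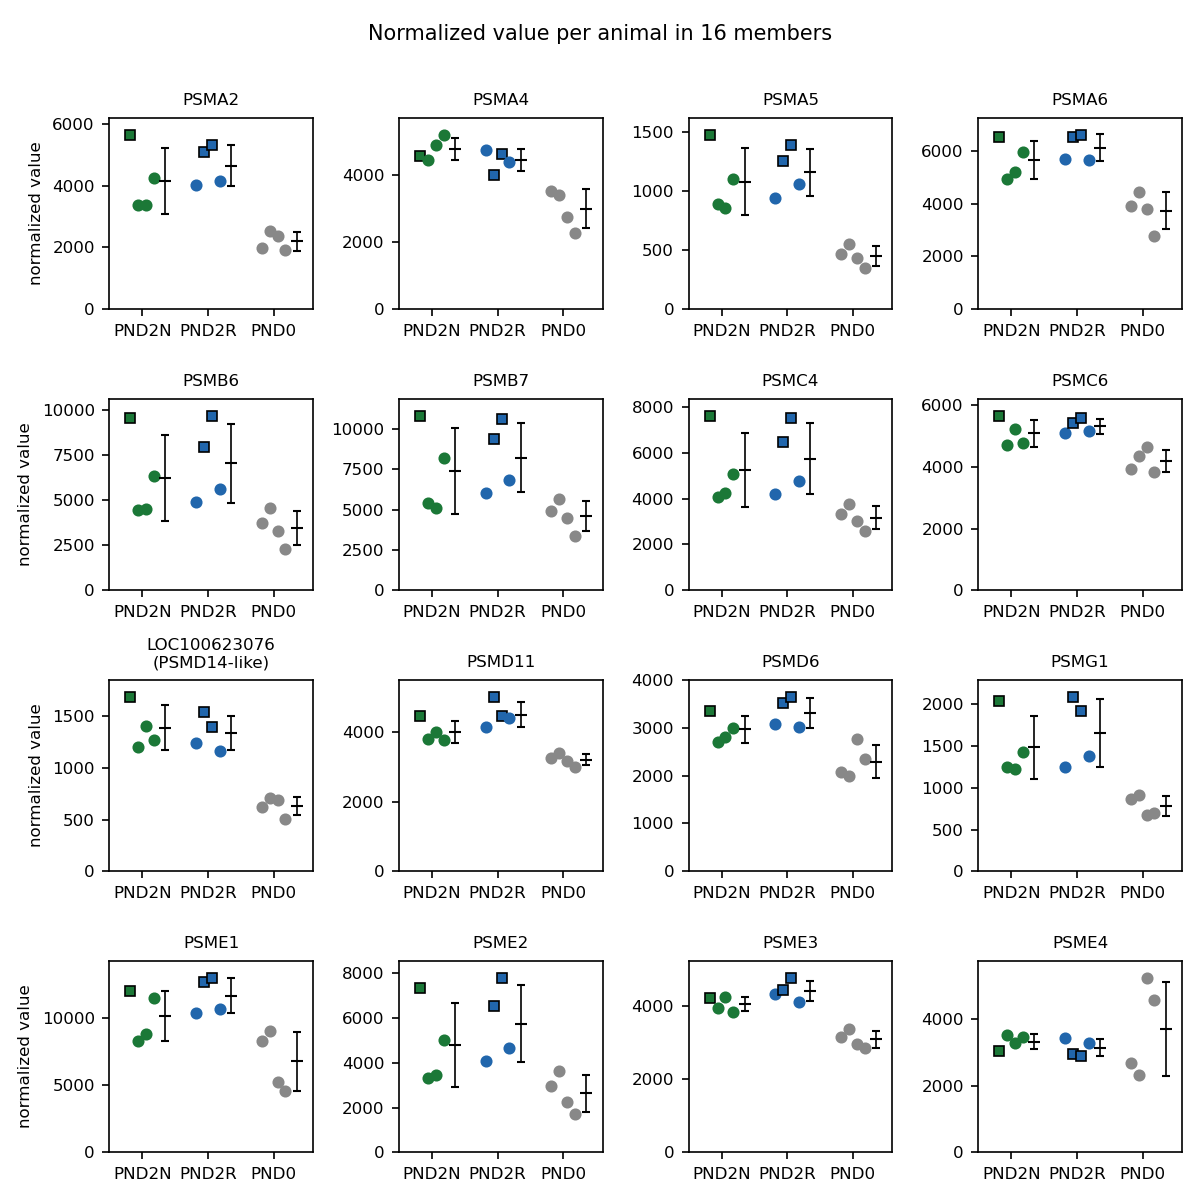
Normalized value per animal for 16 members, with the mean ± SD of 4 animals beside each group; squares with a black edge are PND2N 1, PND2R 2 and PND2R 3. PSMA5 lies between 855 and 1479 on day 2 and between 349 and 551 at birth, while PSME4 has 2 high and 2 low PND0 libraries.

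The beta ring carries the protease sites. PSMB6 and PSMB7, its caspase-like and trypsin-like subunits, rose in the day 2 mean, and the chymotrypsin-like subunit PSMB5 and the structural subunit PSMB4 had changes of 0.53 ± 0.18 and 0.54 ± 0.21 (adjusted p = 0.0635 and 0.0858). PSMB6 had 9556, 4435, 4518 and 6351 in PND2N, 4896, 7966, 9679 and 5644 in PND2R, and 3723, 4557, 3292 and 2316 in PND0. PSMB7 had 10821, 5447, 5112 and 8187 in PND2N, 6063, 9409, 10619 and 6861 in PND2R, and 4928, 5647, 4512 and 3387 in PND0. For both genes PND2N 1, PND2R 2 and PND2R 3 were the 3 highest libraries, PND2R did not overlap with PND0, and PND2N 2 and PND2N 3 overlapped with PND0. PSMB6 rose by 0.91 ± 0.26 (adjusted p = 0.0329) and PSMB7 by 0.73 ± 0.23 (adjusted p = 0.0471). The PSMB6 call ended without PND2N 4, PND2R 2, PND2R 3, PND0 1, PND0 3 or PND0 4 (adjusted p from 0.0569 to 0.113). The PSMB7 call was kept only without PND2N 2, PND2N 3 or PND2R 1, and without any other single library its adjusted p was between 0.0507 and 0.15. All 4 tested beta entries were highest in the same 3 libraries, those of high smooth muscle markers. Without them the changes of PSMB4 and PSMB5 were 0.30 and 0.35 (adjusted p = 0.284 and 0.228).

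In the base of the cap, the ATPases PSMC1, PSMC2, PSMC3, PSMC4 and PSMC6 all had positive changes in the day 2 mean, from 0.17 to 0.76, and PSMC4 and PSMC6 passed the threshold. PSMC4, listed as 26S protease regulatory subunit 6B-like, had 7600.1, 4054, 4258 and 5076 in PND2N, 4191, 6484, 7523 and 4745 in PND2R, and 3309, 3766, 3040.5 and 2566 in PND0. Day 2 and PND0 did not overlap, and the 3 libraries of high smooth muscle markers were again the highest. PSMC4 rose by 0.76 ± 0.20 (adjusted p = 0.0273), and the call ended without PND2N 4, PND2R 2, PND0 1, PND0 3 or PND0 4 (adjusted p from 0.0516 to 0.0926). PSMC6 had 5651, 4700.0, 5231 and 4783 in PND2N, 5090.4, 5429, 5579 and 5155 in PND2R, and 3946, 4349.7, 4638 and 3833 in PND0. Its groups did not overlap, although PND0 3 was close to PND2N 2, and it rose by 0.31 ± 0.10 (adjusted p = 0.0476). Leaving out any 1 of the 12 libraries ended this call (adjusted p from 0.0525 to 0.133).

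The non-ATPase part of the base holds the scaffold subunits PSMD1 and PSMD2 and the ubiquitin receptor PSMD4. None of its 4 entries passed the limma threshold in the day 2 mean, and 1 had an unadjusted p under 0.05. In that comparison 9.57% of all genes tested rose, and 6379 of 16862 had an unadjusted p under 0.05. PSMD4 had 7163, 4591, 4442 and 5659.8 in PND2N, 4515, 6624, 7056 and 4907 in PND2R, and 4086, 4542, 3895 and 2956 in PND0. PND2N 3 and PND2R 1 were below PND0 2, and the change was 0.53 ± 0.18 (adjusted p = 0.0577), or 0.32 without the 3 libraries of high smooth muscle markers (adjusted p = 0.194). PSMD2 had a change of 0.18 ± 0.11 and PSMD1 of 0.08 ± 0.19 (adjusted p = 0.251 and 0.766).

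The lid holds PSMD14, the metalloprotease that cuts the ubiquitin chain from the substrate, among scaffold subunits. Its strongest call was LOC100623076, described as PSMD14-like, on chromosome 15 at 73123437 to 73158310 (minus strand). It lies inside the interval of the entry named PSMD14, which runs from 72998459 to 73184829 on the plus strand. LOC100623076 had 1681, 1195, 1405 and 1267 in PND2N, 1237, 1536, 1394 and 1164 in PND2R, and 619, 705, 689.8 and 509 in PND0. Every day 2 library was above every PND0 library. It rose by 1.14 ± 0.17 in PND2N (adjusted p = 0.0118), by 1.08 ± 0.17 in PND2R (adjusted p = 0.00649) and by 1.11 ± 0.15 in the day 2 mean (adjusted p = 0.0027), and all 3 calls held whichever single library was left out. The PND2N call ended with only PND2N and PND0 in the fit (adjusted p = 0.0735), and the PND2R call without PND2N 1, PND2R 2 and PND2R 3 (adjusted p = 0.0501). The entry named PSMD14 had values of 18.2 to 54.9 over the 12 libraries and a day 2 mean change of -0.44 ± 0.35 (adjusted p = 0.362). Whether the counting used strand is not given in the sources used here, so reads of these overlapping entries cannot be told apart.

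PSMD11, a scaffold subunit of the lid, had 4459, 3792, 4011 and 3771 in PND2N, 4142, 4999.9, 4446 and 4406 in PND2R, and 3257, 3400.1, 3169 and 2999 in PND0. The spread within PND0 was small, with an SD of 168, and day 2 and PND0 did not overlap. PSMD11 rose by 0.40 ± 0.10 in the day 2 mean (adjusted p = 0.0201), and the call ended without PND0 4 (adjusted p = 0.0631). PSMD6, another scaffold subunit, had 3358, 2696, 2811 and 2989.7 in PND2N, 3069, 3511, 3639 and 3014 in PND2R, and 2077, 1984, 2769.6 and 2339.5 in PND0. PND0 3 overlapped with PND2N 2, and PSMD6 rose by 0.46 ± 0.12 (adjusted p = 0.0273). This call ended without PND2N 4, PND2R 2, PND2R 3, PND0 1, PND0 2 or PND0 4 (adjusted p from 0.0534 to 0.069). PSMD6 overlaps the entry ATXN7 on the same strand.

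PSMD8, PSMD13 and SEM1, the smallest lid subunit, also rose in the day 2 mean, by 0.65 ± 0.19, 0.50 ± 0.16 and 0.72 ± 0.23 (adjusted p = 0.0385, 0.0488 and 0.0494). The PSMD8 and SEM1 calls each ended without 7 of the 12 single libraries and the PSMD13 call without 9, with adjusted p up to 0.127, 0.16 and 0.149. PSMD8, PSMD13 and SEM1 were highest in PND2N 1, PND2R 2 and PND2R 3, and without these libraries their changes were 0.44, 0.32 and 0.52 (adjusted p = 0.128, 0.161 and 0.169). PSMD3 and PSMD12 had changes of 0.09 ± 0.15 and 0.17 ± 0.12 (adjusted p = 0.681 and 0.297).

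PSME1 and PSME2 form the PA28 alpha/beta activator, known from the immunoproteasome that makes peptides for antigen presentation. PSME1 had 12038, 8341, 8792 and 11538 in PND2N, 10424, 12669.9, 12983 and 10671 in PND2R, and 8326, 9023, 5226 and 4575 in PND0. PSME2 had 7309.9, 3336, 3465 and 5021 in PND2N, 4059, 6509, 7758 and 4631 in PND2R, and 2977, 3605, 2266 and 1699.6 in PND0. In both, PND0 3 and PND0 4 were the lowest libraries, PND2N 2 and PND2N 3 were at or below PND0 2, and PND2R did not overlap with PND0. PSME1 rose by 0.84 ± 0.22 in PND2R (adjusted p = 0.03) and by 0.73 ± 0.19 in the day 2 mean (adjusted p = 0.0261), with 0.63 ± 0.22 in PND2N (adjusted p = 0.125). PSME2 rose by 1.13 ± 0.31 in PND2R (adjusted p = 0.0321) and by 0.98 ± 0.27 in the day 2 mean (adjusted p = 0.0282), with 0.84 ± 0.31 in PND2N (adjusted p = 0.132).

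The PSME2 value per PSME1 value was 0.607, 0.514 and 0.598 in PND2N 1, PND2R 2 and PND2R 3 and between 0.358 and 0.435 in the other 9 libraries. The day 2 mean call of PSME1 ended without PND2N 4, PND2R 2, PND0 3 or PND0 4 (adjusted p from 0.0503 to 0.0891), and that of PSME2 ended without these or PND2R 3 (0.0517 to 0.0992). The PND2R calls of both ended without PND2R 2, PND2R 3, PND0 3 or PND0 4 (0.0734 to 0.103). Both lie on chromosome 7, PSME2 at 79494451 to 79497722 and PSME1 at 79501686 to 79504386, and each overlaps a gene on the opposite strand (RNF31 and FAM158A). Of the 4 leukocyte markers in the table, 3 rose in the day 2 mean (LAPTM5, AIF1 and C1QB). The remaining marker, PTPRC, did not rise. It was lowest in PND2N 1, PND2R 2 and PND2R 3 (103, 159 and 176, against 258 or above elsewhere), where PSME2 was highest. The summed values of the 4 markers were 6348 to 8157 in PND2N, 5931 to 7728 in PND2R and 2844 to 5729 in PND0. Their part in the PSME1 and PSME2 values was not tested.

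PSME3, the nuclear activator PA28 gamma, had 4214, 3928, 4231 and 3838 in PND2N, 4307, 4435, 4751 and 4102 in PND2R, and 3159, 3379.6, 2967 and 2853 in PND0. The day 2 libraries all lay above PND0, with a narrow spread in each group. PSME3 rose by 0.51 ± 0.11 in PND2R (adjusted p = 0.0165) and by 0.45 ± 0.10 in the day 2 mean (adjusted p = 0.0124), with 0.39 ± 0.11 in PND2N (adjusted p = 0.0689). The day 2 mean call held whichever single library was left out, and the PND2R call ended without PND2R 2 or PND2R 3 (adjusted p = 0.054 and 0.0591). The second PSME3-like entry, LOC100154887, overlaps ATF6 and was between 1 and 6.32.

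PSME4, the activator PA200, did not pass the threshold in any comparison. It had 3035, 3526, 3278 and 3464 in PND2N, 3451, 2962, 2907 and 3277 in PND2R, and 2685, 2326, 5232 and 4591 in PND0. All day 2 libraries lay inside the range of PND0, with PND0 3 and PND0 4 above every day 2 library and PND0 1 and PND0 2 below. The log2 change was -0.12 ± 0.20 in the day 2 mean (adjusted p = 0.689), and it was 0.08 without PND0 3, 0.01 without PND0 4 and 0.37 ± 0.12 without both (adjusted p = 0.0822). The PSME4 value per PSME1 value was 1 in both PND0 3 and PND0 4, and between 0.224 and 0.423 in the other 10 libraries. PND0 3 and PND0 4 were also the libraries of lowest summed epithelial markers, and the part of cell composition in the PSME4 values was not tested. The inhibitor PSMF1 (PI31) had 3919, 2657, 2411 and 3754 in PND2N, 2812, 3883, 3850.2 and 2916 in PND2R, and 2832, 2673, 1669 and 1671 in PND0. Its change of 0.59 ± 0.20 in the day 2 mean missed the threshold (adjusted p = 0.0612). PND0 1 overlapped with both day 2 groups and PND0 2 with PND2N. Without PND0 3 and PND0 4 the change of PSMF1 was 0.23 (adjusted p = 0.489).

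Chaperones assemble the core and the base separately. Among the core assembly chaperones 3 of 5 entries rose in the day 2 mean (median 0.94), and among the base assembly chaperones 0 of 5 (median 0.18, with 2 unadjusted p under 0.05 in limma). Over all genes tested, 9.57% rose in that comparison and 6379 of 16862 had an unadjusted p under 0.05. The difference between the classes was not tested. PSMG1, which helps to build the alpha ring, lies on chromosome 13 at 207271521 to 207284382. It had 2039.8, 1246, 1229 and 1426 in PND2N, 1252, 2088, 1926 and 1385 in PND2R, and 869.8, 912, 674 and 694 in PND0. Day 2 and PND0 did not overlap. It rose by 0.90 ± 0.22 in PND2N (adjusted p = 0.0495), by 1.06 ± 0.22 in PND2R (adjusted p = 0.0149) and by 0.98 ± 0.19 in the day 2 mean (adjusted p = 0.00929). The day 2 mean call held whichever single library was left out. The PND2R call ended without PND2R 2 or PND2R 3 (0.0538 and 0.054), and the PND2N call held only without PND2N 3 (0.0528 to 0.131 without each other library).

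PSMG2, the partner of PSMG1, was split over entries of low value. LOC100623091, described as PSMG2-like, had 209, 173, 198 and 175 in PND2N, 102, 221, 143 and 79.8 in PND2R, and 10.3, 53, 109 and 49.4 in PND0. All PND2N libraries were above PND0, and PND2R 1 and PND2R 4 overlapped with PND0 3. The day 2 mean change was 1.86 ± 0.50 (adjusted p = 0.0277), and the call ended without PND2N 4, PND2R 2, PND2R 3 or PND0 4 (adjusted p from 0.051 to 0.067). The entry named PSMG2 had 47.2, 14.9, 17.9 and 9.2 in PND2N, 94.7, 24.8, 151 and 102 in PND2R, and 114, 80.8, 8.1 and 48.1 in PND0. PSMG3 rose by 0.94 ± 0.28 in the day 2 mean (adjusted p = 0.0402), and its call ended without PND2N 4, PND2R 2, PND2R 3 or any of the 4 PND0 libraries (0.0691 to 0.0953).

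PSMD9 and PSMD5 are chaperones of the base. PSMD9 had 4667, 3634, 3224 and 4315 in PND2N, 3542, 4542, 4942 and 3632 in PND2R, and 3893, 3454, 2524 and 1992 in PND0. Its groups overlapped, with a day 2 mean change of 0.49 ± 0.19 (adjusted p = 0.0851). PSMD5 had 154, 1053, 1423 and 547 in PND2N, 888, 168, 154 and 762 in PND2R, and 1377, 1279, 1420.0 and 1444 in PND0. Its values in PND2N 1, PND2R 2 and PND2R 3 were far below those of the other 9 libraries, and its change was -1.56 ± 0.61 in the day 2 mean (adjusted p = 0.0887). Without these 3 libraries it was -0.65 (adjusted p = 0.126). In PND2R versus PND0 the change of PSMD5 was -1.92 (adjusted p = 0.0775 in limma). That adjusted p was 0.0494 with only those groups in the fit.

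The 3 libraries of high smooth muscle markers, which also had the most genes at 1, carried much of the spread within day 2. PND2N 1, PND2R 2 and PND2R 3 held the 3 highest of the 12 values for 26 of the 49 members (53.1%) and the 3 lowest for 5, against 15.8% and 21.2% of all genes tested. The 5 members lowest in them were PSMD5 and LOC100626650, both PSMD5 entries, and the second entries LOC100625934, LOC100620124 and LOC100623199. Taken relative to each member's mean over all libraries, the median member was at 0.36, 0.37 and 0.46 (log2) in these 3 libraries. It was between -0.04 and 0.15 in the other 5 day 2 libraries and at -0.21, -0.07, -0.40 and -0.59 in PND0 1 to PND0 4. The median over all genes tested was between -0.05 and 0.05 in every library.

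Without PND2N 1, PND2R 2 and PND2R 3, 7 members rose in the day 2 mean and 0 fell, where 3.76% of all genes tested rose. They were PSMA2 (log2 change 0.83, adjusted p = 0.0143), PSMA4 (0.67, adjusted p = 0.0305), PSMA5 (1.13, adjusted p = 0.0125), PSMA6 (0.58, adjusted p = 0.0463), LOC100623076 (0.99, adjusted p = 0.0117), PSME3 (0.41, adjusted p = 0.0496) and PSMG1 (0.74, adjusted p = 0.0245). The median change of all members was 0.34, and those of core, cap and activators were 0.47, 0.26 and 0.41. For PSME1 and PSME2 the changes were then 0.62 and 0.69 (adjusted p = 0.102 and 0.0841), and for PSMB6 and PSMB7 0.61 and 0.47 (adjusted p = 0.0886 and 0.144). PSMA1 and PSMA3 then had changes of 0.47 and 0.55 (adjusted p = 0.0834 and 0.0696), and PSMC4 and PSMC6 of 0.50 and 0.26 (adjusted p = 0.0587 and 0.162). PSMD6 and PSMD11 had 0.37 and 0.34 (adjusted p = 0.108 and 0.0731), and PSMG3 and LOC100623091 had 0.60 and 1.59 (adjusted p = 0.103 and 0.0985). In PND2N versus PND0, 3 members rose without these libraries (0.741% of all genes tested rose), and in PND2R versus PND0, 2 rose (0.640%), with 2 replacer-fed animals left.

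Without PND0 3 and PND0 4, the libraries of lowest summed epithelial markers, 2 PND0 animals were left. In the day 2 mean 5 members then rose, where 5.08% of all genes tested rose. They were PSMA5 (1.12, adjusted p = 0.0256), PSMA2 (0.95, adjusted p = 0.0314), LOC100623076 (1.03, adjusted p = 0.0165), PSMD6 (0.62, adjusted p = 0.0248) and LOC100623091 (2.65, adjusted p = 0.0258). The PSME3-like entry LOC100154887, at 1 to 6.32, fell by 1.43 (adjusted p = 0.0453), where 3.49% of all genes tested fell. PSMA5, PSMA2 and LOC100623076 were thus called without either set of libraries. PSMA4, PSMA6, PSME3 and PSMG1 had changes of 0.41, 0.49, 0.37 and 0.79, with adjusted p of 0.051, 0.0555, 0.0563 and 0.0741. For PSME1 and PSME2, whose lowest values were in these libraries, the changes were 0.32 and 0.62 (adjusted p = 0.237 and 0.239). The other 11 called in the fit of all libraries did not pass, with changes of 0.28 to 0.92 (adjusted p from 0.0859 to 0.434). The median of all members was 0.30, and those of core, cap and activators were 0.40, 0.24 and 0.37. In PND2N versus PND0, 2 members rose (1.57% of all genes tested rose), and in PND2R versus PND0, 5 rose (4.15%).

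**Figure D4:**
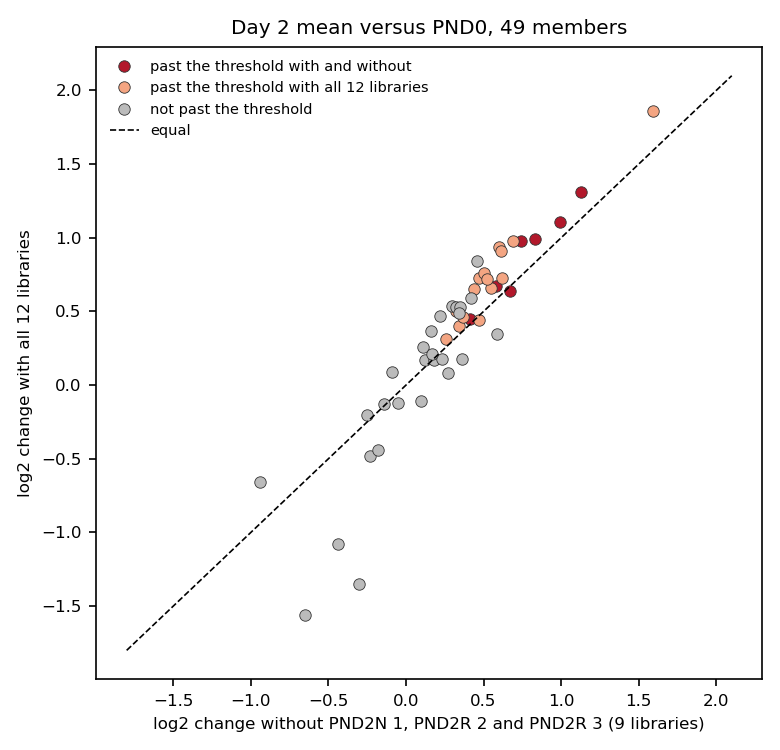
Log2 change of the 49 members in the day 2 mean versus PND0, with all 12 libraries (vertical axis) against the same change without PND2N 1, PND2R 2 and PND2R 3 (horizontal axis), with a dashed line where they are equal. The 7 dark points passed the threshold in both fits; PSMD5 and LOC100623199, at the bottom, moved toward 0 without the 3 libraries.

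Subunits listed under several entries did not keep a fixed ratio between them. LOC100623199, described as PSMD1-like, is on chromosome 15 at 140587860 to 140605468, ahead of PSMD1 (140660163 to 140774958) on the same strand. It had 55.1, 575, 855 and 251 in PND2N, 515, 70.8, 74.4 and 384 in PND2R, and 523, 611, 626 and 569 in PND0. Per PSMD1 value it was 0.0335, 0.0423 and 0.0472 in PND2N 1, PND2R 2 and PND2R 3, and between 0.13 and 0.345 in the other 9 libraries. Its change of -1.35 ± 0.72 in the day 2 mean did not pass the threshold (adjusted p = 0.185), and it was -0.30 without these 3 libraries (adjusted p = 0.566).

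The same libraries were lowest in the ratio of LOC100620124 to PSMD12, at 0.0524, 0.0669 and 0.0628, against 0.122 to 0.357 elsewhere. LOC100620124 had a day 2 mean change of -1.08 (adjusted p = 0.111), or -0.44 without these 3 libraries (adjusted p = 0.303). For PSMA5 the second entry is LOC100625934, on the same chromosome at 116887077 to 116904670 and on the opposite strand. Its value per PSMA5 value was 0.333, 0.852, 1.06 and 0.502 in PND2N, 0.836, 0.392, 0.29 and 0.537 in PND2R, and 1.45, 1.57, 1.37 and 1.46 in PND0. All day 2 ratios lay below all PND0 ratios. LOC100625934 itself had a day 2 mean change of -0.11 ± 0.23 (adjusted p = 0.74), and was not called. How reads of near-identical sequence were shared between such entries is not given in the sources used here, and these ratios are therefore uncertain.

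**Figure D5:**
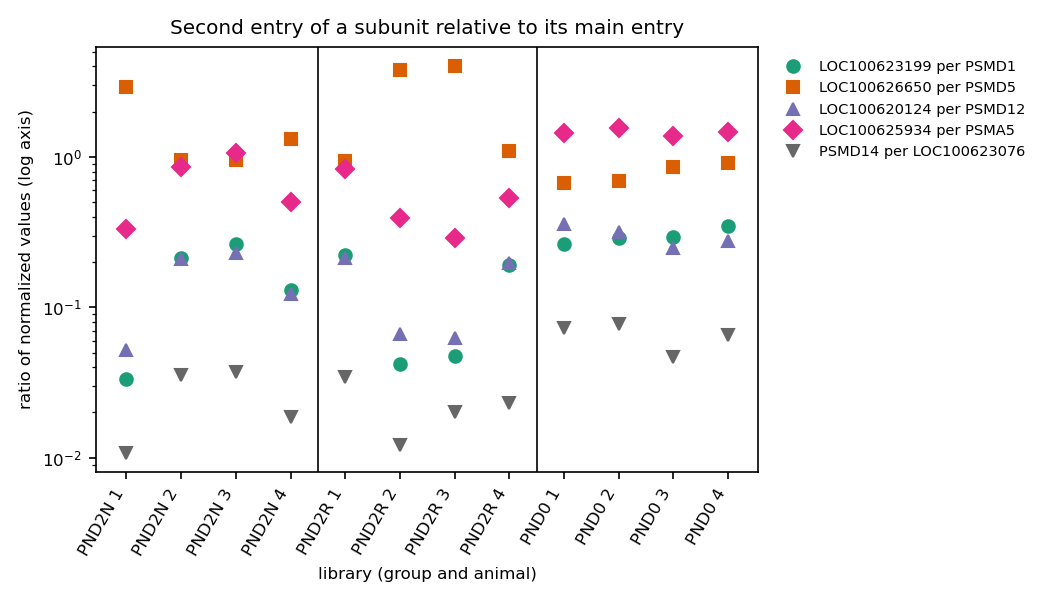
Ratio of the normalized values of 2 entries of the same subunit in each library, on a log axis. The PSMA5 ratio is between 0.29 and 1.06 on day 2 and between 1.37 and 1.57 at birth, and the PSMD1 and PSMD12 ratios are lowest in PND2N 1, PND2R 2 and PND2R 3.

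Partners of the proteasome that are not subunits were taken from a list of 29 genes, of which 23 were in the table and 22 were tested. They include ubiquitin genes, ubiquitin-activating enzymes, shuttle factors, the VCP segregase with its cofactors, and regulators of proteasome transcription and import. In the day 2 mean 3 of 22 rose and 0 fell, which is 13.6% of them against 9.57% of all genes tested that rose. The median log2 change was 0.12, and 59.1% were positive, against 47.2% of all genes tested. POMP, the chaperone that matures the core, had 2094, 1402, 1588 and 1628 in PND2N, 1596, 1849, 2036 and 1634 in PND2R, and 1267, 1316, 1069 and 742 in PND0. All day 2 libraries were above PND0, and POMP rose by 0.68 ± 0.17 (adjusted p = 0.0235), a call that ended without PND0 3 or PND0 4 (adjusted p = 0.0555 and 0.0721). PAAF1, a chaperone of the base, rose by 0.57 ± 0.18 (adjusted p = 0.0467) and UFD1L, a cofactor of VCP, by 0.42 ± 0.13 (adjusted p = 0.0436). These calls ended without 8 and 9 of the 12 single libraries, with adjusted p up to 0.122 and 0.136. Without PND2N 1, PND2R 2 and PND2R 3 the changes of POMP, PAAF1 and UFD1L were 0.55, 0.39 and 0.32 (adjusted p = 0.0887, 0.172 and 0.165), and without PND0 3 and PND0 4 they were 0.41, 0.44 and 0.29 (adjusted p = 0.14, 0.247 and 0.211). AKIRIN2, a factor that carries proteasomes into the nucleus, had a change of 0.35 ± 0.12 (adjusted p = 0.0578).

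UBE3C, a ubiquitin ligase bound to the proteasome, had 191, 1102, 1298 and 554 in PND2N, 1079, 196, 175 and 928 in PND2R, and 1499, 1488, 1349 and 1825 in PND0. It was lowest in PND2N 1, PND2R 2 and PND2R 3, with a change of -1.56 ± 0.59 (adjusted p = 0.08), or -0.67 without them (adjusted p = 0.11). These 3 libraries held the 3 lowest values for 7 of the 22 partners and the 3 highest for 4, against 21.2% and 15.8% of all genes tested. In PND2R versus PND0, where 7.70% of all genes tested rose, 1 partner rose, which was POMP (0.72 ± 0.20, adjusted p = 0.0339), a call that ended without PND2N 4, PND2R 2, PND2R 3, PND2R 4, PND0 3 or PND0 4 (0.0511 to 0.106). In limma 0 partners passed in PND2N versus PND0, where 4 of the 22 reached an unadjusted p below 0.05. Over all genes tested, 1.91% rose in that comparison and 4032 of 16862 had an unadjusted p below 0.05. NFE2L2, a transcription factor of stress responses, had a day 2 mean change of -0.05 ± 0.11 (adjusted p = 0.731), and VCP of 0.19 ± 0.11 (adjusted p = 0.193).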

How the data were processed

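RNA was isolated with a column kit and made into messenger RNA libraries, per the labels' protocols. Per the submitters' processing notes, bcl2fastq was used and the genome build is Sscrofa10.2. What aligned and counted the reads, whether strand was used, and how values were normalized is not given in the sources used here. The authors deposited a normalized signal on a linear scale for each gene and library. It starts at 1, where 17.8% to 22.1% of genes stood. Only 42.9% to 60% of low values were whole multiples of a step (within 0.02 steps), so no counts were recovered, the depth in reads is unknown, and no counting interval was computed. A member at 1 was not detectable at this depth.

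Members and gene lists were chosen with earlier results of these data known. Placeholder entries were matched by their descriptions, and 22 of 32 carry a subunit's name in a later RefSeq table (Sscrofa11.1), used for names only. Another 4 entries of PSMB8 and PSMB9 were left out, and 13 members overlap another entry. Values were taken as log2(value + 1), and genes over 1 in at least 4 of 12 libraries were tested. In R 4.3.3, limma 3.58.1 fitted all libraries together with group as the factor. It moderated the variances (trended and robust, using statmod 1.5.0) and gave two-sided tests. The fit was run on simulated data with 200 changed genes and independent noise in each gene. In these data 3 libraries often moved together across genes, so the simulation does not show how the tests behave here. Benjamini-Hochberg adjustment ran over all genes tested. No list was tested as a set. Labels name separate animals but no litter or batch, so neither could enter the fit.

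Values per library are given for the 15 members with the smallest p in the F test over the groups among those past the threshold, the 2 members of each class with the smallest p in the day 2 mean, the activators and the inhibitor. Other members past the threshold are named with their change, and PSMG2 and the split entries were added after their values were seen. Partners named are those among the 6 with the smallest p, of which 1 is not reported here, with NFE2L2 and VCP added after their values were seen. Alternatives were to add 0.1 or 5 before the log2, to filter at 10 or not at all, TMM scaling (trims of 0.3 and 0.05) or quantile normalization, a fit of the compared groups alone, untrended moderation, quality weights for libraries, a 2-fold threshold, leaving out each library, and PND2N 1, PND2R 2 and PND2R 3 left out together. Leaving out PND0 3 and PND0 4 together was added. Both sets of libraries left out together were chosen from values of these same data. Python 3.11.15 with pandas 2.3.3, numpy 2.4.6 and matplotlib 3.10.9 made the remaining tables and all plots.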

Additional observations from a re-analysis of the deposited data

Results flagged for a closer look

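Each of the 49 tested members was checked in each of the 3 groups of 4 for a library far from the other 3, which made 147 checks. The gap to the nearest library, divided by the range of the group, had to exceed Dixon's 95% critical value for 4 samples, and chance flags about 1 in 20 groups. Of the 147 groups 3 exceeded it, all in entries of low value. PSMA8 was the highest of its group in PND2N 3, at 26.6, where the other nursed libraries had 8.35, 10.8 and 11.3. PSMA8 was also the lowest of its group in PND2R 1, at 14.5, where the other replacer-fed libraries had 25, 26.1 and 25. LOC100155621, a second SEM1-like entry, was the highest of its group in PND2R 3, at 22, where the others had 13.3, 12.4 and 13.2.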

How the results depend on the processing

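The count of members called in PND2N versus PND0 (5) was 0 with only the compared groups in the fit. It was 3 with plain (untrended, not robust) empirical Bayes and 2 with a 2-fold threshold. Without PND2N 1, PND2R 2 and PND2R 3 it was 3, and without PND0 3 and PND0 4 it was 2 (both sets chosen from these same data). It was 1 to 5 with 1 library left out. In PND2R versus PND0 (15) it was 7 with a 2-fold threshold, 2 without the 3 libraries, 5 without PND0 3 and PND0 4 and 3 to 22 with 1 library left out. With only the compared groups in the fit this count was 17 (16 higher, 1 lower, which was PSMD5). The count also included 1 lower member without PND2N 1 (of 22) and 1 without PND2R 1 (of 20). In the day 2 mean (22) it was 12 with library quality weights, 3 with a 2-fold threshold, 7 without the 3 libraries, 6 without PND0 3 and PND0 4 (5 higher, 1 lower) and 7 to 23 with 1 library left out; a fit of only the compared groups does not exist for it. Leaving out libraries also leaves fewer samples, and the cause was not tested otherwise. Counts over all genes tested moved as well. With 1 library left out, 9 to 365 genes rose in PND2N, 270 to 1835 in PND2R and 600 to 1940 in the day 2 mean. With all libraries these were 322, 1299 and 1614. The other added values, filters and scalings kept these counts within 1.5 times, and PND2N versus PND2R stayed at 0 in every setting. The median change of the cap in PND2R versus PND0 was 0.21 without the 3 libraries (0.35 with all), and the other 171 medians under other settings and all 192 with 1 library left out moved by less than 1 within-group SD. PSME4 turned positive with quality weights (0.06 in PND2N, 0.02 in the day 2 mean) and without single PND0 libraries (PND0 3 or PND0 4: 0.12 and 0.05 in PND2N, 0.08 and 0.01 in the day 2 mean; PND0 3: 0.04 in PND2R) and without both (0.41 in PND2N, 0.33 in PND2R, 0.37 in the day 2 mean); over all single libraries left out it ran from -0.27 to 0.12 in PND2N, -0.35 to 0.04 in PND2R and -0.31 to 0.08 in the day 2 mean. No paired analysis was possible because the labels give no replicate numbers shared between groups. Depth in reads is unknown, which limits the entries near 1 most.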
